A study of Homo sapiens with 2 samples.

Results

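The genes described here are *CLU*, *SPP1*, *LGALS1*, *LGALS3*, *LGALS8* and *LCN2*, which encode clusterin, osteopontin, galectins 1, 3 and 8 and lipocalin 2. They are 6 of the 13137 genes in a table of sequence tags, found by their symbols. They were chosen by their tags in these same libraries, so their levels and ratios are a description and no test is given. The states of A549, a human lung adenocarcinoma cell line, were compared to find genes whose mRNA differs with *SOX2* silencing. Cells labelled shRNA-SOX2 carried a doxycycline-inducible hairpin against *SOX2*, and cells labelled shRNA-Con carried a scrambled hairpin in the same way. Each was a polyclonal population selected with puromycin, and both were incubated with doxycycline for 4 days. One library of each was made, so no value has a replicate, and the intervals below are 95% intervals that cover counting error only.

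Clusterin is a secreted chaperone that binds misfolded proteins outside the cell and also circulates as an apolipoprotein. Osteopontin is a secreted phosphoprotein that cells bind through integrins and CD44, and it is widely studied in the spread of carcinomas. Galectins are soluble lectins that leave the cell without a signal peptide and crosslink galactose-containing sugars of surface glycoproteins. Lipocalin 2 is a secreted carrier of iron-binding siderophores made by neutrophils and inflamed epithelium.

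Of the 4 genes with a promoter sequence, *SPP1* and *LGALS3* are shown because both had more tags in the shRNA-SOX2-labelled library while their promoters differ in base composition. The sequences are the 250 bases before the RefSeq start on the plus strand of GRCh38.p14, at chr4:87975464-87975713 for *SPP1* and chr14:55129002-55129251 for *LGALS3*. Capitals mark the SOX core ACAAT and the RUNX core ACCACA on either strand.
SPP1: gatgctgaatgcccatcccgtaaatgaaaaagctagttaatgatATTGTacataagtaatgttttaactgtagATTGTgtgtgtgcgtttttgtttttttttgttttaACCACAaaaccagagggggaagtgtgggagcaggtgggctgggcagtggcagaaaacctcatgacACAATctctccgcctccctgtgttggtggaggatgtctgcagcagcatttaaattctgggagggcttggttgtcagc
LGALS3: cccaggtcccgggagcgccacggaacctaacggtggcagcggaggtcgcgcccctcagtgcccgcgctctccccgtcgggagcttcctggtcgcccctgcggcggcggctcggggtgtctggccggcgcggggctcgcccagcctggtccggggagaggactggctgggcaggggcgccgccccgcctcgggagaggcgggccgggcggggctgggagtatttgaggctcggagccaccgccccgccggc

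The *SPP1* window held 3 matches to the SOX core, beginning 206, 177 and 77 bases before the start, and 1 match to the RUNX core. The *LGALS3* window held no match (0) to the SOX core, the RUNX core, the AP-1 motif TGANTCA or the TATA box TATAAA. Its GC content was 78.8%, against 44.8% for *SPP1* and a median of 58% over all windows used. No SOX core was found in the window of *LCN2*, which held 1 match to TGANTCA that reads TGAATCA, or in the 3 windows of *LGALS8*. Over 35116 promoter windows of this length, 24.6% held the SOX core, 11.0% the RUNX core, 6.57% the AP-1 motif with any base at N and 10.7% the TATA box on either strand. These shares are over windows of every GC content and were not matched to that of *SPP1* or *LGALS3*. The part of GC content in the difference between their matches was thus not tested. The 35116 windows leave out chr8, which holds *CLU*. A match is a run of letters and says nothing of binding.

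Gene tags summed to 2304184 for shRNA-Con and to 2093816 for shRNA-SOX2. The counts are of tags and not of bases along the mRNA, so that levels are given as CPM, tags per 1000000 gene tags, and not per length. The target *SOX2* had 16 tags with shRNA-Con and 23 in the shRNA-SOX2-labelled library, a ratio of 1.58 (0.80 to 3.20), and was thus not lower under the label that names it. The directions below are therefore those between the labelled libraries. Of 10 A549 epithelial markers, 9 were found, with sums of 17041 and 22663 CPM with shRNA-Con and the shRNA-SOX2-labelled library. Their level came mainly from *KRT8*, *KRT18*, *ALDH1A1*, *AKR1B10*, *NQO1* and *KRT7*, while *EPCAM* had 8 and 4 tags. Of the 8 with at least 20 tags, 2 (*KRT19* and *ALDH1A1*) were at least 2-fold higher in the shRNA-SOX2-labelled library and 1 (*KRT7*) at least 2-fold lower, and the part of these differences in the results below was not tested. The alveolar type II list had 4 of 8 genes found, summing to 25.6 and 25.8 CPM, mostly from *ABCA3*. *SFTPA1*, *SFTPB*, *SFTPC* and *NKX2-1* were searched for and were not found, nor was *AKR1C1* of the epithelial markers. A gene not found has no entry in the deposited data, which does not tell whether the cells lacked its mRNA.

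Between the libraries, *CLU* and *SPP1* were more than 3-fold higher in the shRNA-SOX2-labelled library, *LGALS1* and *LGALS3* were higher by less than 2-fold, and *LGALS8* had nearly the same level in both. *LCN2* was near the limit of detection. Of the 6 genes, 5 had at least 20 tags in the libraries together, and 2 of these 5 were at least 2-fold higher while 0 were at least 2-fold lower. Over all 10045 genes with at least 20 tags, 10.4% were at least 2-fold higher and 13% at least 2-fold lower. The contrast chose the genes, so nothing is read from that difference. The median log2 ratio was 0.92 for the 5 genes and -0.10 for all 10045.

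**Figure D1:**
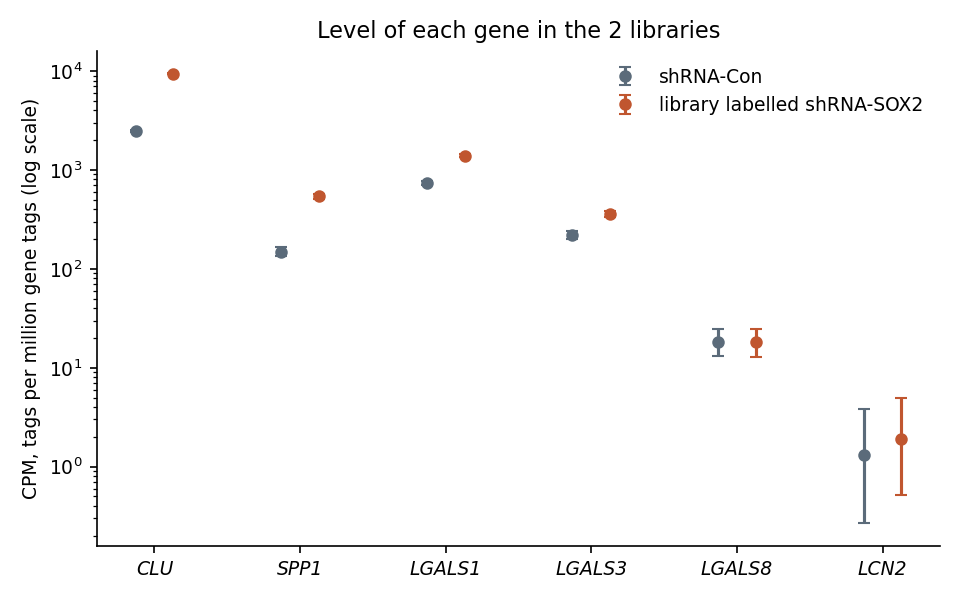
Level of each of the 6 genes in CPM, on a log axis, with shRNA-Con and in the shRNA-SOX2-labelled library. Points are the 2 libraries and bars are exact 95% Poisson intervals; the bars are apart for CLU, SPP1, LGALS1 and LGALS3 and overlap for LGALS8 and LCN2.

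*CLU* (Entrez Gene ID 1191) had 5745 tags with shRNA-Con and 19590 in the shRNA-SOX2-labelled library. Its level was 2493 CPM (2429 to 2559, exact Poisson interval) with shRNA-Con and 9356 (9226 to 9488) in the shRNA-SOX2-labelled library. The level was high in both libraries and far higher in the latter, with intervals that did not overlap. The ratio was 3.75 (3.64 to 3.87, Clopper-Pearson interval), a log2 ratio of 1.91, which is 2.01 above the median of all genes. *CLU* moved from place 35 to place 6 when genes were ordered by tags within each library. Among the 693 genes with at least 1000 tags, whose counting error is small, 9 had a larger ratio than *CLU*. In this group 67 genes were at least 2-fold higher and 65 at least 2-fold lower.

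*SPP1* (Entrez Gene ID 6696) had 343 tags with shRNA-Con and 1130 in the shRNA-SOX2-labelled library. Its level was 149 CPM (134 to 165) with shRNA-Con and 539.7 (509 to 572) in the other library. It thus started from a far lower level than *CLU* and was higher by a nearly equal factor. The ratio was 3.63 (3.21 to 4.10), a log2 ratio of 1.86. The log2 ratio of *CLU* exceeded that of *SPP1* by 0.05 (-0.13 to 0.23, exact conditional interval), so that a difference between them was not detectable at this depth. Of the 10045 genes with at least 20 tags, 252 had a larger ratio than *SPP1* and 224 a larger ratio than *CLU*.

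*LGALS1* (Entrez Gene ID 3956), the prototype galectin with a single sugar-binding domain that forms dimers, had 1697 and 2923 tags with shRNA-Con and the shRNA-SOX2-labelled library. Its level was 736 CPM (702 to 772) with shRNA-Con and 1396 (1346 to 1448) in the other library. The ratio was 1.90 (1.78 to 2.01), a log2 ratio of 0.92. *LGALS1* was thus the most abundant galectin by tags in both libraries, and its ratio lay just below 2-fold, with an interval that reached it.

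*LGALS3* (Entrez Gene ID 3958), the galectin with an extended amino-terminal tail through which it forms oligomers, had 507 tags with shRNA-Con and 745 in the shRNA-SOX2-labelled library. Its level was 220.0 CPM (201 to 240.0) and 356 (331 to 382) in the same order. The ratio was 1.62 (1.44 to 1.81), a log2 ratio of 0.69. *LGALS3* was higher in the shRNA-SOX2-labelled library, by a factor a little smaller than that of *LGALS1*. The difference between their log2 ratios was 0.23 (0.04 to 0.42, exact conditional interval).

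*LGALS8* (Entrez Gene ID 3964), a galectin with a pair of sugar-binding domains in 1 chain that marks damaged endosomes for autophagy, had 42 tags with shRNA-Con and 38 in the shRNA-SOX2-labelled library. Its level was 18.2 CPM (13.1 to 24.6) and 18.1 (12.8 to 24.9). The ratio was 0.996 (0.62 to 1.58), and this depth could not show a change within these limits, upward or downward. The direction of *LGALS8* depended on the scaling, with a log2 ratio of -0.01 by gene tags, 0.07 by TMM factors and -0.12 by clean tags. The log2 ratio of *LGALS1* exceeded that of *LGALS8* by 0.93 (0.25 to 1.61), and that of *LGALS3* exceeded it by 0.70 (0.01 to 1.39). In GENCODE release 29, *LGALS8* overlaps *HEATR1* on the opposite strand, which had 111 and 96 tags. The strand of the counting is not given in the sources used here, so tags of these genes could have been exchanged.

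*LCN2* (Entrez Gene ID 3934) had 3 tags with shRNA-Con and 4 in the shRNA-SOX2-labelled library, or 1.30 CPM (0.27 to 3.80) and 1.91 (0.52 to 4.89). The ratio was 1.47, with an interval from 0.25 to 10.02 that holds both a strong fall and a strong rise. No difference in *LCN2* was detectable at this depth. It was the 1 gene of the 6 that did not reach 20 tags.

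**Figure D2:**
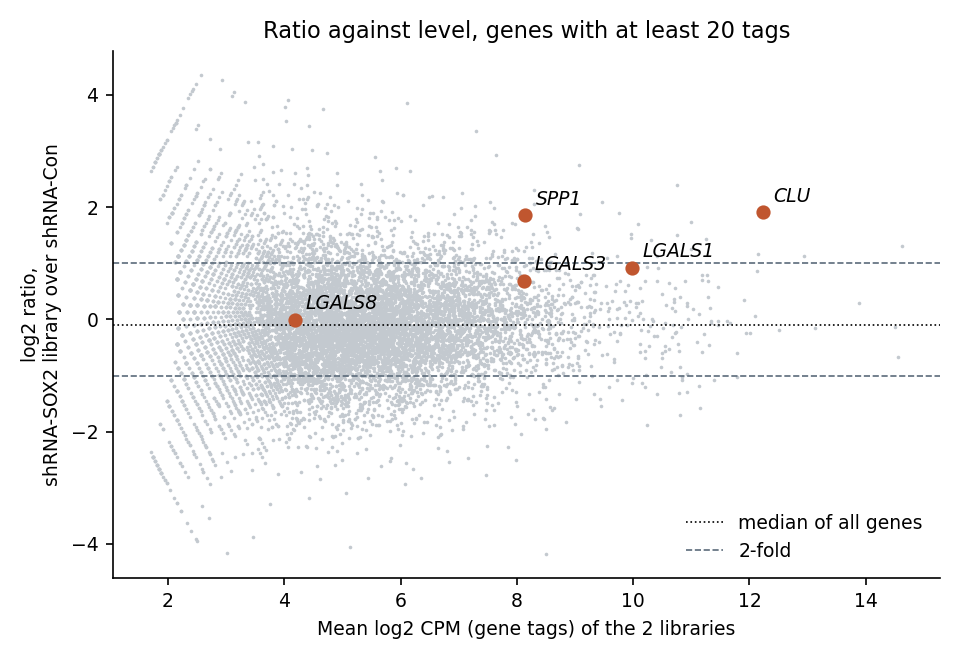
Log2 ratio (shRNA-SOX2 over shRNA-Con) against the mean log2 level, in CPM, for the 10045 genes with at least 20 tags (grey) and 5 of the 6 genes (orange). CLU lies at the far right with a log2 ratio of 1.91 among few genes of that level, SPP1 lies above the 2-fold line, LGALS1 and LGALS3 lie below it, and LGALS8 lies near the median of all genes at -0.10.

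The 15 pairs of the 6 genes were compared by intervals that are not corrected for the number of pairs. The ratios of *CLU* and *SPP1* could not be told apart, and the log2 ratio of *CLU* exceeded that of *LGALS1* by 0.99 (0.89 to 1.08). That of *SPP1* exceeded that of *LGALS1* by 0.94 (0.74 to 1.13). All 5 pairs with *LCN2* had intervals that held 0. These differences do not depend on how the libraries are scaled, since the same factor enters both ratios, and they rest on counting error within 1 pair of libraries.

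The genes nearest to each member in level and ratio together, by Euclidean distance in log2 CPM over the 2 libraries, were *ALDH1A1* and *KRT8* for *CLU*, at distances of 0.54 and 0.75. *ALDH1A1*, an aldehyde dehydrogenase abundant in A549 cells, had 7035 and 14268 tags. For *SPP1* the nearest were *C19orf63* (distance 0.02) and *CYB5B* (0.26), and for *LGALS1* they were *NDUFA1* and *ALDH3A1* (each 0.08). The nearest genes to *LGALS3* were *NDUFS3* (0.05) and *TWF1* (0.07), and those to *LGALS8* were *MITD1*, with the same tags, and *UEVLD* (0.03). No gene was as near to *CLU* as these genes were to the others, since few genes have its level.

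In the galectin family, 5 of the 17 genes searched were found, and all 5 had at least 20 tags. None (0 of 5) was at least 2-fold higher and 1 was at least 2-fold lower. For this list and those below, the shares over all 10045 genes were 10.4% higher and 13% lower. The lower galectin was *LGALS4*, an intestinal galectin, with 16 tags with shRNA-Con and 5 in the shRNA-SOX2-labelled library, a ratio of 0.34 (0.10 to 0.98). *LGALSL*, a galectin-related protein named here after its values were seen, had 16 and 25 tags, a ratio of 1.72 (0.88 to 3.45). The median log2 ratio of the 5 was 0.69, and 3 of these 5 genes belong to the 6 described above.

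Proteins that galectins bind on the cell surface or in the matrix had 12 of 14 genes found. Of these 12, 2 were at least 2-fold higher and 1 was at least 2-fold lower, with a median log2 ratio of 0.35. *LGALS3BP*, a secreted glycoprotein that binds galectin 3, had 97 tags with shRNA-Con and 398 in the shRNA-SOX2-labelled library, a ratio of 4.52 (3.61 to 5.70). Its interval lay above that of each galectin found and overlapped that of *CLU*. *ITGA5*, the alpha chain of the fibronectin receptor, had 28 and 67 tags, a ratio of 2.63 (1.67 to 4.25). *SLC3A2*, the heavy chain of an amino acid transporter known as CD98, had 1815 and 766 tags, a ratio of 0.46 (0.43 to 0.51). *ITGB1*, which had the most tags of the list, had 3182 and 4281, a ratio of 1.48 (1.41 to 1.55).

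The enzymes that build the branched N-glycans and N-acetyllactosamine chains that galectins bind had 8 genes with at least 20 tags among 10 found of 11. Of these 8, 0 were at least 2-fold higher and 1 was at least 2-fold lower, with a median log2 ratio of -0.08. *B4GALT1*, the galactosyltransferase that adds the galactose of N-acetyllactosamine, had 635 tags with shRNA-Con and 179 in the shRNA-SOX2-labelled library, a ratio of 0.31 (0.26 to 0.37). *MGAT4B*, an N-acetylglucosaminyltransferase that starts a branch and had the most tags of the list, had 417 and 554, a ratio of 1.46 (1.29 to 1.66). The enzymes thus lay on both sides of an equal level.

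Among receptors of osteopontin, 8 of 10 genes were found and 6 had at least 20 tags. Of these 6, 2 were at least 2-fold higher and 0 at least 2-fold lower, and their log2 ratios lay between 0.44 and 2.72 with a median of 0.72. *ITGA8*, an integrin alpha chain that binds osteopontin, had 10 tags with shRNA-Con and 60 in the shRNA-SOX2-labelled library, a ratio of 6.60 (3.35 to 14.5). The other gene past 2-fold was *ITGA5*, with a ratio of 2.63 (1.67 to 4.25), and *ITGB1* had the most tags. Both are also in the list of proteins that galectins bind, so the counts of these lists share genes. *ITGAV* and *CD44*, the best known receptor chains and named here after their values were seen, had ratios of 1.84 (1.68 to 2.03) and 1.36 (1.24 to 1.49). *ITGAV* had 696 and 1166 tags, and *CD44* had 875 and 1080. *ITGB3*, which pairs with *ITGAV* in the classical osteopontin receptor, had 2 and 0 tags, and *ITGB5* had 351 and 462. *ITGA4* had 0 tags with shRNA-Con and 6 in the other library.

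*SPP1* belongs to a family of small integrin-binding proteins of bone and tooth matrix proteins, of which 2 of 5 were found. The other, *IBSP*, had 2 tags with shRNA-Con and 0 in the shRNA-SOX2-labelled library. Of the enzymes that cleave, phosphorylate or crosslink osteopontin, 5 of 6 were found and 2 had at least 20 tags, with 0 past 2-fold in either direction and a median log2 ratio of -0.15. *TGM2*, the transglutaminase that crosslinks osteopontin, had 608 and 386 tags, a ratio of 0.70 (0.61 to 0.80). *SPP1* and *TGM2* therefore differed in direction between the libraries.

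Extracellular chaperones and apolipoproteins, the family of proteins that clusterin resembles in function, had 5 of 9 genes found and 4 with at least 20 tags, *CLU* included. All 4 of these were at least 2-fold higher in the shRNA-SOX2-labelled library, with a median log2 ratio of 1.31, and with clean tags as the scaling 3 of the 4 were. Over all 10045 genes 10.4% were at least 2-fold higher. *CLU* was chosen by this contrast and the list with earlier results known, so nothing is read from the count. *APOH*, a plasma phospholipid-binding protein, had 43 and 97 tags, a ratio of 2.48 (1.72 to 3.64). *APOE*, a ligand of the low density lipoprotein receptor family, had 12 and 27 tags (2.48, 1.21 to 5.37), and *APOC1*, a small apolipoprotein encoded beside it, had 154 and 282 (2.02, 1.65 to 2.47). The ratios of these 3 were below that of *CLU*, and the interval of *APOE* overlapped that of *CLU*.

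Receptors that take up clusterin had 5 of 7 genes found and 4 with at least 20 tags, 1 of them at least 2-fold higher and 1 at least 2-fold lower, with a median log2 ratio of 0.72. With clean tags as the scaling, 0 were at least 2-fold higher. *LRP1*, a large endocytic receptor, had 28 tags with shRNA-Con and 55 in the shRNA-SOX2-labelled library, a ratio of 2.16 (1.35 to 3.54). *VLDLR*, the very low density lipoprotein receptor, had 40 and 7, a ratio of 0.19 (0.07 to 0.43). *LRP8*, the apolipoprotein E receptor and the member with the most tags, had 43 and 67, a ratio of 1.71 (1.15 to 2.58). The receptors thus lay on both sides of an equal level.

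Of 19 lipocalins, 7 were found and 2 had at least 20 tags, with 0 past 2-fold in either direction and a median log2 ratio of -0.19. *AMBP*, the precursor of alpha-1-microglobulin, had 50 and 52 tags, more than the other lipocalins found, and a ratio of 1.14 (0.76 to 1.72). Of 6 genes tied to lipocalin 2, 4 were found and 2 had at least 20 tags, of which 1 was at least 2-fold higher, 0 were at least 2-fold lower and the median log2 ratio was 1.08. *BDH2*, an enzyme described as making a mammalian siderophore, had 41 tags with shRNA-Con and 86 in the shRNA-SOX2-labelled library, a ratio of 2.31 (1.57 to 3.44). *NFKBIZ*, a nuclear factor known to induce *LCN2*, had 51 and 90, a ratio of 1.94 (1.36 to 2.79). Below 20 tags, *SLC22A17* had 12 and 3 and *MMP9* had 4 and 0, fewer in the shRNA-SOX2-labelled library. The intervals of their ratios held 1, and they are named here after their values were seen. *LCN2* itself had 3 and 4 tags.

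Acute-phase secreted proteins, with which clusterin and lipocalin 2 are often measured, had 9 of 14 genes found and 4 with at least 20 tags. None of the 4 (0) was at least 2-fold higher, 1 was at least 2-fold lower, and the median log2 ratio was 0.57. With TMM factors or the median ratio as the scaling, 1 was at least 2-fold higher. *SERPINA3*, a serine protease inhibitor, had 30 and 5 tags, a ratio of 0.18 (0.06 to 0.48), and *C3*, the central complement protein, had 85 and 141, a ratio of 1.83 (1.38 to 2.42). *FGG* and *CP*, named here after their values were seen, had ratios of 1.99 (1.14 to 3.57) and 1.20 (0.72 to 2.01). Of the genes with at least 20 tags, *SERPINA3* was thus lower and the others were higher, *CP* with an interval that held 1.

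All 6 genes carry an annotation to the extracellular region, space or matrix in the deposited table. Of the 490 genes with at least 20 tags and such an annotation, a set chosen after the values were seen, 106 (21.6%) were at least 2-fold higher and 63 (12.9%) at least 2-fold lower. The shares over all 10045 genes were 10.4% and 13%. The median log2 ratio was 0.19 for the annotated genes and -0.10 for all. These 490 include 5 of the 6 genes and were given no test.

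*SPP1*, *LGALS3* and *LCN2* are also known from macrophages and neutrophils. Of 12 markers of those cells 6 were found, and they summed to 9.55 CPM with shRNA-Con and 11.5 in the shRNA-SOX2-labelled library. *PTPRC*, the common leukocyte antigen, had 2 tags in each library, *CD68* had 2 and 5, and *CD14* had 11 and 10. The whole list was thus far below the level of *SPP1* or *LGALS3* in both libraries, and above that of *LCN2*, which had 1.30 and 1.91 CPM. Fibroblast and endothelial markers had 4 of 10 genes found, summing to 21.3 and 25.8 CPM, mostly *COL1A1* with 44 and 43 tags. In bulk RNA, a change in the share of cells with an mRNA and a change in its amount per cell cannot be told apart.

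The order of the ratios was the same under all 4 scalings tried, since a scaling shifts every gene by the same amount. *CLU* and *SPP1* were past 2-fold under each of the 4, and *LGALS1*, *LGALS3* and *LCN2* were above 0 and below 2-fold under each. The median of all genes moved from -0.10 by gene tags to -0.03 by TMM factors and -0.22 by clean tags. Against that median, the log2 ratio was 2.01 for *CLU*, 1.96 for *SPP1*, 1.03 for *LGALS1*, 0.80 for *LGALS3*, 0.10 for *LGALS8* and 0.66 for *LCN2*.

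**Figure D3:**
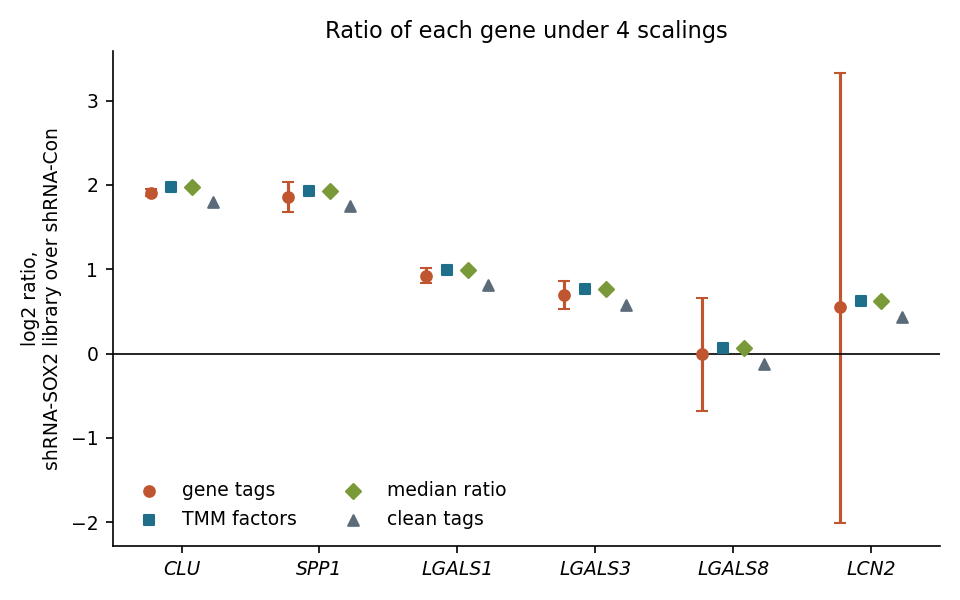
Log2 ratio (shRNA-SOX2 over shRNA-Con) for the 6 genes under 4 scalings (gene tags, TMM factors, median ratio and clean tags), with the exact 95% interval of counting error drawn for gene tags. The shift between scalings is small beside the ratios of CLU and SPP1, and crosses 0 for LGALS8.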

How the data were processed

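Digital gene expression of A549 cells was profiled in 1 library per condition by the Beijing Genomics Institute from oligo(dT)-purified mRNA of 4 µg total RNA. The authors deposited tag counts per Entrez Gene ID without normalization, and the column codes SC and S1 were read as shRNA-Con and shRNA-SOX2. The authors' deposited TPM values are scaled per 1000000 clean tags, write 0 tags as 0.01, and served only to recover the clean tags (3516266 for shRNA-Con and 3456234 for shRNA-SOX2). The submitters' processing notes name hg19, and the aligner and annotation are not given in the sources used here. The deposited log2 ratios, p-values and FDR compare the libraries and were not used. No listed gene had 1 tag in a library (0 genes), and the lowest number above 0 was 2.

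Counts were divided by the total of gene tags, which was 2304184 and 2093816, and a count below 3 tags was set to 3 in a ratio. Levels carry exact Poisson intervals and ratios Clopper-Pearson intervals at 95%, for counting error only, and differences between ratios an exact conditional interval of the odds ratio. The floor of 3 tags is 0.000143% of the gene tags labelled shRNA-SOX2 and 0.000130% of those of shRNA-Con. Rows without a symbol held 0.0372% and 0.0535% of the gene tags. No p-value was computed, since each condition has 1 library. Genes were counted with a minimum of 20 tags over both libraries and a 2-fold threshold. The intervals were tested on simulated counts with Poisson error only, which says nothing of the spread between cultures. Python 3.11.15, scipy 1.17.1, R 4.3.3, edgeR 4.0.16 (TMM) and DESeq2 1.42.0 (median ratio) were used.

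The 6 genes and the 15 gene lists were chosen with earlier results of these data known. From each list were named the genes furthest past 2-fold (up to 2 in each direction) and the gene with the most tags, and for each of the 6 genes with at least 20 tags the 2 nearest genes in level and ratio. List genes were matched by their IDs, 13086 of 13137 being in the RefSeq table of GRCh38.p14. Promoter sequences are from RefSeq, with those on chr8, which holds *CLU*, left out. They matched 4 of the 6 genes, leaving *CLU* and *LGALS1*. The alternatives were TMM factors, the median ratio, clean tags, 0.5 added to each count, a minimum of 10 tags or none, and a 1.5-fold threshold.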

Additional observations from a re-analysis of the deposited data

How the results depend on the processing

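With TMM factors or the median ratio, the log2 ratio of *CLU*, 1.91 by gene tags, was 1.98 under each, and with clean tags it was 1.79. The log2 ratio of *LGALS1* was 0.81 with clean tags against 0.92. These shifts follow from the scaling, which moves every gene alike, and the other genes moved by less than their counting error. With a 1.5-fold threshold 2060 genes were higher and 2667 lower, against 1040 and 1306 at 2-fold, because the threshold is looser. Of all genes past 2-fold, 44.3% were higher by gene tags, 35.1% by clean tags, 50.1% by the median ratio and 50.3% by TMM factors. Adding 0.5 to each count, or a minimum of 10 tags or none, left each count of genes within 1.5 times its value. For the gene lists, 1 count moved by over 1.5 times with clean tags, 2 with the median ratio and 2 with TMM factors. All were counts of higher genes. They were fewer clusterin receptors with clean tags, and more lipocalin-2 partners and acute-phase proteins with the median ratio and with TMM factors.

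No paired analysis was possible because there was only 1 library on each side, and none was left out. Depth limits *LCN2*, *LGALS8* and *SOX2*, whose intervals hold a ratio of 1. The spread between cultures is not known from these libraries, so that the intervals are narrower than those replicates would give.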
